A study of Mus musculus with 6 samples.

Results

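These are 2 small groups of 5′ fragments of glycine tRNAs in mouse heart, read in animals with and without the RNase Z ELAC2. One group holds the 9 fragments of 35 nt or less that begin with GCATTGGTAGTTCAA, the first 15 nt of tRF_5_282. The other holds the 14 fragments of 35 nt or less that begin with GCGCCGCT, the first 8 nt of tRF_5_325. Together they are 23 of the 1336 tRNA fragment sequences in the tables, and 23 of the 430 5′ fragments of that length. Both starts were chosen by how their counts moved between knockout and control hearts in these same libraries, so that contrast is described here and carries no test. The reference for both is tRF_5_284, the most abundant fragment in the tables.

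Control hearts came from 3 mice labelled L/L and Elac2 +/+, in which an exon of Elac2 is flanked by loxP sites and for which the labels name no cre. Knockout hearts came from 3 mice labelled L/L, cre and Elac2 -/-, which carry the same loxP sites and express cre under the control of the promoter of muscle creatine kinase, active in heart and skeletal muscle. All 6 mice are on a C57BL/6 background, the tissue is whole heart RNA, and no age is named in the labels. Each mouse has 1 column of counts, combined from 4 technical replicates, and RNA was size-selected for 15 to 35 nt. Non-muscle cells of the heart keep Elac2 in this model, and in bulk RNA a change per cell and a change in the number of cells cannot be told apart. The tables hold tRNA fragments only, so neither Elac2 mRNA nor a marker of heart muscle could be read.

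ELAC2 removes the 3′ trailer of tRNA precursors, both nuclear and mitochondrial. A tRNA folds into a cloverleaf in which the anticodon lies in a loop of 7 bases held by a stem of 5 base pairs. Cuts in or near that loop leave 5′ fragments, which stand among the most abundant small RNAs of many tissues, and those of glycine tRNA are well known among them. Glycine is read by several tRNAs whose anticodons differ in the first base.

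The sequences show how close the groups are. Bases are counted from 1 at the 5′ end, and capitals mark positions 9, 15 and 33, where the 35-nt forms of 3 starts differ. The first line is the form related to tRF_5_284, the second a member, and the third the start that differs from the member by 1 base.
tRF_5_412: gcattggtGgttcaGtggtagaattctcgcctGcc
tRF_5_409: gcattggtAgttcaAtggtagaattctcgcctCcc
tRF_5_410: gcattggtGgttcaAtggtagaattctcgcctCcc
At 31 nt the same starts are tRF_5_284, tRF_5_282 and tRF_5_283, and position 33 is not yet reached.
tRF_5_284: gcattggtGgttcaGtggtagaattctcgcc
tRF_5_282: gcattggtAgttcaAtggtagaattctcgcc
tRF_5_283: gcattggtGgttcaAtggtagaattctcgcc
From tRF_5_412 to tRF_5_409 the changes are G9A, G15A and G33C, and from tRF_5_410 to tRF_5_409 the change is G9A alone. The members that start like tRF_5_325 are less close. The pair below compares their 27-nt form with that of the tRF_5_284 start, with the 10 differing positions in capitals.
tRF_5_182: gcGCCgCtggtGTagtggtaTCatGcA
tRF_5_178: gcATTgGtggtTCagtggtaGAatTcT

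Within each group the members form a ladder with 1 sequence per length, each being the beginning of the next longer one. The tRF_5_282 start covers every length from 27 to 35 nt, and the tRF_5_325 start covers 14 lengths between 16 and 35 nt. Such members share a 5′ end and are not independent of each other. Longer sequences in the tables allowed the anticodon to be read. It was CCC for the tRF_5_282 start, the tRF_5_325 start and the tRF_5_283 start, and GCC for the tRF_5_284 start. In all 4 the stem begins at base 26, the loop runs from base 31 to 37 and the anticodon takes bases 33 to 35. A 27-nt fragment thus ends inside the stem, a 31-nt fragment after the first loop base, and a 35-nt fragment directly after the anticodon.

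All 10 members of the tRF_5_325 start with 25 nt or more matched 1 place in the GENCODE transcripts, on GRCm38, which is the assembly behind mm10. They lie at chr17:25875088-25875122 on the plus strand, and tRF_5_182 covers chr17:25875088-25875114. RefSeq places the tRNA gene n-TGccc7 at chr17:25875088-25875158, so the fragments begin at its first base. GENCODE also annotates this stretch as part of the exonic 5′ UTR of Mettl26, a protein-coding gene, from 25875074 to 25875529. A match does not show that the fragment came from this copy. None of the 9 members of the tRF_5_282 start matched a transcript, and they have no position here because a genome sequence was not used.

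The libraries differ in size. The summed tRF count was 235046 to 773252 in control and 45354 to 61712 in knockout libraries, which is not the sequencing depth. The level of tRF_5_284 was 117289, 383836 and 212360 counts in control and 27977, 20635 and 37017 counts in knockout libraries. Levels below are therefore raw counts, or counts set against another fragment in the same library. Knockout replicate 3 stands apart for the longest fragments: the 35-nt tRF_5_412 had 238, 187 and 25 counts in the knockout libraries, although that library held the most tRF_5_284 among the 3.

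Members that start like tRF_5_282 had more raw counts in the knockout libraries than in the controls, in spite of the smaller libraries. Summed over the 9 members the counts were 52, 54 and 47 in control and 487, 310 and 84 in knockout hearts. The controls lay within a few counts of each other, the knockouts were spread widely, and the groups did not overlap. Per 1000 counts of tRF_5_284 the group stood at 0.443, 0.141 and 0.221 in control and 17.4, 15.0 and 2.27 in knockout hearts. On the log2 scale this ratio was 5.13 higher in knockout hearts (SD between libraries 0.83 in control and 1.64 in knockout, n = 3 each). Without knockout replicate 3 the difference was 6.07, without knockout replicate 1 it was 4.61, and with other 5′ fragments of 35 nt or less as the reference it was 3.58. The reference tRF_5_284 itself had a fitted log2 fold change of −2.55 ± 0.91 (SE). With library totals alone as the scale that value was 0.02, so the lower level of the reference depends on the scaling. In raw counts the ratio combines a start with more counts and a reference with fewer. With all tRF counts as the reference the log2 difference was 5.12.

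The longest member was also the most counted in the knockout. The 35-nt tRF_5_409 had 9, 20 and 17 counts in control and 241, 167 and 22 counts in knockout hearts, and its fitted log2 fold change was 3.69 ± 0.86 (SE). All knockout libraries lay above all controls, but knockout replicate 3 only by 2 counts. The 31-nt tRF_5_282 had 17, 23 and 20 counts in control and 127, 56 and 13 counts in knockout hearts, and its groups overlapped, since knockout replicate 3 was below each control. Its fitted log2 fold change was 2.20 ± 0.80 (SE), the smallest among the fitted members of this start. Both sequences carry the A at positions 9 and 15 shown above.

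The 4 forms between and beside them were low in every control library. At 34 nt, tRF_5_379 had 2, 2 and 3 counts in control and 48, 30 and 6 counts in knockout hearts (log2 fold change 4.04 ± 0.90 SE). At 33 nt, tRF_5_346 had 1, 4 and 5 counts against 28, 24 and 8 counts (log2 fold change 3.03 ± 0.84 SE). In both, knockout replicate 3 was again the lowest knockout library. The shorter forms were more even among the knockout libraries or in another order. At 32 nt, tRF_5_316 had 4, 0 and 1 counts in control and 13, 11 and 10 counts in knockout hearts (log2 fold change 3.34 ± 0.83 SE). At 30 nt, tRF_5_252 had 3, 1 and 1 counts in control and 12, 18 and 20 counts in knockout hearts (log2 fold change 3.89 ± 0.80 SE), with knockout replicate 3 the highest. Each of these 4 forms had more counts in every knockout library than in any control, and how often other sequences showed this order was not counted. The order describes a start chosen on this contrast and supports nothing.

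The 3 members of 27 to 29 nt did not pass the filter on low counts, with 4 to 24 counts over all 6 libraries. At 27 nt, tRF_5_176 had 7, 2 and 0 counts in control and 10, 0 and 0 counts in knockout hearts. At 28 nt, tRF_5_193 had 7, 2 and 0 counts against 7, 4 and 4, and at 29 nt tRF_5_218 had at most 2 counts in any library. Counts of this size overlap between the groups.

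Of the 9 members, 6 passed the filter, and edgeR called 6 of them higher and 0 lower in the knockout, where 15.7% of all 254 tested sequences were called higher and 16.9% lower (quasi-likelihood test, adjusted p under 0.05). Their median log2 fold change was 3.52, against 0.06 over all tested sequences. This contrast chose the start. The filter is scaled to library size, and the 6 members passed it through the knockout libraries, where they are high. The count therefore describes the choice and the filter, and supports nothing. In the authors' deposited table, 5 of the 8 members with an adjusted p were higher and 0 lower, beside 5.45% higher and 11.5% lower among all sequences with one. The exception among the fitted members was tRF_5_282, with an adjusted p of 0.062 in the authors' deposited table. Its edgeR call was also lost with size factors of DESeq2, with no filter, by limma-voom and with the replicate number as a block (adjusted p between 0.058 and 0.16). Leaving out control replicate 3 gave 0.092, and leaving out the first or the second knockout library gave 0.24 and 0.087.

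Length for length, the members were compared with the related GCC fragments. The share given here is the member's percentage of the counts of the 2 sequences of that length, with a 95% exact Clopper-Pearson interval that covers counting error only. At 31 nt, tRF_5_282 made up 0.0145%, 0.00599% and 0.00942% of its sum with tRF_5_284 in control and 0.452%, 0.271% and 0.0351% in knockout hearts. At 33 nt, tRF_5_346 took 0.520% ± 0.445 of its sum with tRF_5_349 in control hearts and 9.47% ± 5.09 in knockout hearts (SD, n = 3). At 34 nt, tRF_5_379 took 0.780% ± 0.396 and 32.7% ± 11.6 (SD, n = 3) of its sum with tRF_5_382. At 33 and 34 nt each knockout library lay above each control, as at 31 nt. For these and the shares below, how often other sequences showed this order beside the same partners was not counted.

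At 35 nt the knockout libraries held about equal counts of both. There tRF_5_409 had 241, 167 and 22 counts and tRF_5_412 had 238, 187 and 25 counts. The share of tRF_5_409 was 50.3% (45.7 to 54.9), 47.2% (41.9 to 52.5) and 46.8% (32.1 to 61.9) in the 3 knockout libraries. In the controls, with 9, 20 and 17 counts beside 1658, 3195 and 1617 counts of tRF_5_412, it was 0.540% (0.247 to 1.02), 0.622% (0.380 to 0.959) and 1.04% (0.607 to 1.66). The means were 0.734% ± 0.268 in control and 48.1% ± 1.93 in knockout hearts (SD, n = 3). Knockout replicate 3, low in both sequences, did not differ in this share from the other knockout libraries beyond counting error. The reference itself had a fitted log2 fold change of −3.33 ± 0.80 (SE), and −0.79 with library totals alone as the scale. In raw counts the share combines a member with more counts and a reference with fewer.

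At 30 and 32 nt the shares were smaller. The 30-nt tRF_5_252 took 0.0237% ± 0.0114 of its sum with tRF_5_254 in control and 0.847% ± 0.383 in knockout hearts (SD, n = 3). The 32-nt tRF_5_316 took 0.0649% ± 0.0648 of its sum with tRF_5_318 in control and 2.57% ± 0.736 in knockout hearts (SD, n = 3). At 28 nt, tRF_5_193 reached 0.00519% ± 0.00693 and 0.209% ± 0.112 (SD, n = 3) beside tRF_5_195, on 9 and 15 counts in all. The shares at 30 and 32 nt did not overlap between the groups. At 27 nt, tRF_5_176 took 6.10%, 0% and 0% of its sum with tRF_5_178 in knockout hearts, and at most 0.0564% in control hearts.

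The length limit of 35 nt, which is also that of the size selection, separates similar sequences. The 36-nt tRF_5_433, the next step of the ladder and no member, had 2, 23 and 9 counts in control and 110, 75 and 6 counts in knockout hearts. Its share beside the 36-nt tRF_5_435 was 0.144%, 0.515% and 0.504% in control and 34.2%, 30.2% and 27.3% in knockout hearts. For the other start, the 36-nt tRF_5_442 had 1, 8 and 2 counts in control and 0 in each knockout library, while the 35-nt tRF_5_420 is a member.

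The start that differs from these members by the single change G9A had fewer counts in the knockout. Summed over its 10 sequences of 35 nt or less, the tRF_5_283 start had 151, 465 and 299 counts in control and 15, 20 and 24 counts in knockout hearts. At 31 nt, tRF_5_283 had 93, 303 and 196 counts against 10, 13 and 20 counts. At 35 nt, tRF_5_410 had 6, 49 and 17 counts in control and 0 counts in each knockout library, where tRF_5_409 had 241, 167 and 22. A count of 0 allows up to 3 counts.

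Between this pair of starts, both with anticodon CCC, the balance differed between control and knockout hearts. The tables do not show which tRNA gene or allele either start comes from, or whether the base at position 9 was read as it is in the gene, and this was not tested. The tRF_5_282 start held 25.6%, 10.4% and 13.6% of the counts of both in control and 97.0%, 93.9% and 77.8% in knockout hearts. At 35 nt its share was 60.0%, 29.0% and 50.0% in control and 100% in each knockout library, with the lower bound of the 95% interval at 98.5%, 97.8% and 84.6%. At 31 nt it was 15.5%, 7.06% and 9.26% in control and 92.7%, 81.2% and 39.4% in knockout hearts. In raw counts the sum of both starts overlapped, with at most 519 counts in control and 108 to 502 in knockout hearts. The knockout libraries were smaller, and as a share of tRF counts the sum did not overlap. There the tRF_5_282 start alone held 0.136% to 0.87% in knockout hearts. In control hearts it held at most 0.0221%, and the tRF_5_283 start at most 0.0789%. Set against the abundant relative, the tRF_5_283 start stood at 1.29, 1.21 and 1.41 counts per 1000 counts of tRF_5_284 in control hearts, a narrower spread than that of the tRF_5_282 start, and at 0.536, 0.969 and 0.648 in knockout hearts.

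The lengths of the tRF_5_282 start also differed from those of the abundant relative. At 33 to 35 nt lay 41.5% ± 16.1 of its counts in control and 59.7% ± 14.9 in knockout hearts (SD, n = 3), with overlap between the groups. The tRF_5_284 start had 1.01% ± 0.286 and 1.23% ± 0.579 (SD, n = 3) of its counts there, and the tRF_5_283 start 11.9% ± 3.11 in control hearts. For the tRF_5_282 start, the 31-nt form took 32.7%, 42.6% and 42.6% in control and 26.1%, 18.1% and 15.5% in knockout hearts, and these did not overlap. The 35-nt form took 17.3%, 37.0% and 36.2% in control and 49.5%, 53.9% and 26.2% in knockout hearts, where knockout replicate 3 was within the control range. That library had 23.8% of the start's counts at 30 nt, against 2.46% and 5.81% in the other knockout libraries.

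Members that start like tRF_5_325 went different ways by length: the 27-nt form had similar raw counts in both groups of libraries, and the 34-nt and 35-nt forms had fewer in the knockout. Summed over 14 members the counts were 132, 115 and 112 in control and 66, 63 and 62 in knockout hearts. The counts within a group differed by at most 20, although the tRF totals of the controls differed more than 3-fold. Per 1000 counts of tRF_5_284 the group stood at 1.13, 0.300 and 0.527 in control and 2.36, 3.05 and 1.68 in knockout hearts, all knockout libraries above all controls. The log2 ratio was 2.03 higher in knockout hearts (SD 0.96 in control and 0.43 in knockout, n = 3 each). With other 5′ fragments of 35 nt or less as the reference the difference was 0.48. The difference of 2.03 also holds the lower fitted level of tRF_5_284, which was not seen with library totals alone as the scale. With all tRF counts as the reference the difference was 2.02.

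The 27-nt form was the most counted member in each knockout library. Its counts, those of tRF_5_182, were 33, 10 and 48 in control and 30, 33 and 46 in knockout hearts, with overlap between the groups and a fitted log2 fold change of 0.84 ± 0.75 (SE). With library totals alone as the scale that value was 2.87, with an edgeR adjusted p of 0.030. Over the same libraries its partner of that length, tRF_5_178, had 12401, 8052 and 6394 counts in control and 154, 119 and 94 counts in knockout hearts. The share of tRF_5_182 in the pair was thus 0.265%, 0.124% and 0.745% in control and 16.3% (11.3 to 22.5), 21.7% (15.4 to 29.1) and 32.9% (25.2 to 41.3) in knockout hearts, which did not overlap.

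The 34-nt and 35-nt forms, which end in the anticodon, had fewer raw counts in the knockout, and the 35-nt form was the most counted member in control replicates 1 and 2. The 35-nt tRF_5_420 had 54, 67 and 34 counts in control and 11, 11 and 2 counts in knockout hearts, with no overlap and a fitted log2 fold change of −2.10 ± 0.78 (SE). The 34-nt tRF_5_389 had 21, 33 and 22 counts in control and 13, 6 and 5 counts in knockout hearts (log2 fold change −1.12 ± 0.71 SE), also without overlap. With library totals alone as the scale, these values turned to 0.23 and 1.26, so the direction of both forms depends on the scaling.

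Beside the GCC fragment of the same length both forms took a larger share in the knockout. The share of tRF_5_420 in its sum with tRF_5_412 was 3.15%, 2.05% and 2.06% in control and 4.42%, 5.56% and 7.41% in knockout hearts. That of tRF_5_389 in its sum with tRF_5_382 was 7.25% ± 0.866 in control and 14.4% ± 2.48 in knockout hearts (SD, n = 3). In both pairs each knockout library lay above each control, although the member's raw counts were lower. How often other sequences showed this order beside these partners was not counted. The last of the knockout shares of tRF_5_420 rests on 2 counts, with an interval of 0.910 to 24.3. Both partners had lower fitted levels in the knockout, with log2 fold changes of −3.33 for tRF_5_412 and −2.20 for tRF_5_382. With library totals alone as the scale these were −0.79 and 0.24. Per 1000 counts of tRF_5_284, both members overlapped between the groups. There tRF_5_420 stood at 0.460, 0.175 and 0.160 in control and 0.393, 0.533 and 0.0540 in knockout hearts.

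The 32-nt tRF_5_325, which gives the group its start, was rare. It had 3, 1 and 2 counts in control and 4, 5 and 9 counts in knockout hearts, a fitted log2 fold change of 2.16 ± 0.76 (SE). Its share beside tRF_5_318 was 0.0866% ± 0.0494 in control and 1.33% ± 0.449 in knockout hearts (SD, n = 3). The knockout counts lay above the control counts by as little as 1 count.

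The 10 members that did not pass the filter had 1 to 16 counts over all libraries. The largest of these was the 29-nt tRF_5_227, with 9, 2 and 4 counts in control and 0, 1 and 0 counts in knockout hearts. The 28-nt tRF_5_202 had 3, 2 and 1 counts against 0 in each knockout library, and the 30-nt tRF_5_262 had 2, 0 and 0 against 4, 1 and 0. The remaining 7, of 16, 17, 19, 20, 25, 26 and 33 nt, had at most 2 counts in any library.

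Of the 4 members that passed, edgeR called 1 higher, tRF_5_325, and 1 lower, tRF_5_420, beside the 15.7% and 16.9% of all tested sequences given above; their median log2 fold change was −0.14. The call of tRF_5_325 was lost with no filter, by DESeq2, by limma-voom and with the replicate number as a block. It was also lost without any 1 knockout library (adjusted p from 0.068 to 0.54 over these settings). In the main fit the fragment passed the filter through the knockout libraries, and it did not pass without any 1 control library. Of the others, tRF_5_182 and tRF_5_389 also reached the minimum in 3 libraries only with the knockout libraries. The call of tRF_5_420 was lost with upper-quartile scaling, with library totals alone, without control replicate 2 and without any 1 knockout library (adjusted p from 0.078 to 0.82). In the authors' deposited table, of 5 members with an adjusted p, 0 were higher and 1 was lower, namely tRF_5_420 with a log2 fold change of −2.30. Set against tRF_5_284 in the same library, 6 of 6 fitted members of the tRF_5_282 start and 2 of 4 of the tRF_5_325 start were higher in each knockout than in each control library. Such an order held for 56.5% of the 253 tested sequences other than tRF_5_284, members included, so 2 of 4 is close to that background. The opposite order, which 0 members showed, held for 4.35%.

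By length, the tRF_5_325 start had fewer of its counts at the long end in the knockout, whereas the tRF_5_282 start did not. At 33 to 35 nt lay 56.8%, 87.0% and 50.0% of its counts in control and 37.9%, 30.2% and 11.3% in knockout hearts, with no overlap. At 27 nt lay 25.0%, 8.70% and 42.9% in control and 45.5%, 52.4% and 74.2% in knockout hearts. The mean length was 32.1 ± 1.50 nt in control and 29.3 ± 0.785 nt in knockout hearts (SD, n = 3). For the tRF_5_282 start it was 32.1 ± 1.06 and 33.0 ± 0.726 nt, and for the tRF_5_284 start 30.2 ± 0.258 and 30.7 ± 0.0620 nt (SD, n = 3). The difference between starts in how length moved was not tested, since both were chosen on this contrast.

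The place matched by the tRF_5_325 start also gives the other end of the same tRNA, which the choice of members did not use. The tables hold 13 CCA-ending fragments that match the end of n-TGccc7, and 0 trailers that begin directly behind it. Summed, these CCA-ending fragments had 88, 39 and 47 counts in control and 71, 52 and 81 counts in knockout hearts, which overlapped. The most counted was the 22-nt tRF_3_213, with 23, 23 and 25 counts in control and 48, 30 and 45 counts in knockout hearts. Its raw counts did not overlap, but edgeR did not call it (log2 fold change 1.35 ± 0.69 SE, adjusted p 0.16). The 18-nt tRF_3_95 had 30, 4 and 6 counts against 18, 9 and 25, also without an edgeR call (adjusted p 0.30). The 19-nt tRF_3_118 had 14, 5 and 13 against 0, 4 and 0. Other tRNA genes may share this 3′ end, which could not be looked up without a genome sequence.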

How the data were processed

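The authors deposited raw counts per tRNA fragment sequence, 1 column per mouse per the file headers, and a table of their own comparison with log2 fold change and adjusted p-value, quoted as theirs. Bowtie2 2.2.9, cutadapt 1.1.4 and DESeq2 1.16.1 with build mm10 were used, per the submitters' processing notes. The sources used here do not give their order, the mapping rules or how 4 technical replicates were combined, and how reads of near-identical fragments were assigned could move these counts. The counts divided by a size factor that the authors also deposited were not used.

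Of all 1336 sequences, those that passed a filter on low counts, 254, were fitted with edgeR 4.0.16 (R 4.3.3, quasi-likelihood, group as the only term, TMM, filterByExpr with a minimum count of 10, Benjamini-Hochberg adjustment at 0.05). That filter scales its minimum to library size and asks for it in 3 libraries, so the knockout libraries alone can pass a sequence. The SE was taken as the size of the log2 fold change over the square root of F. TMM factors were 0.215 to 1.02 in control and 1.85 to 2.56 in knockout libraries. The step was tested on simulated data with a common dispersion and equal numbers of raised and lowered sequences, which leaves the choice of scale untested. Other scalings and filters, DESeq2 1.42.0, limma-voom (limma 3.58.1), a replicate block, other references and leaving out each library were the alternatives. Ratios and same-length shares need no scaling, and their intervals (SciPy 1.17.1) cover counting error only. The same-length partner is the sequence of the compared start with the highest mean share of tRF counts. Anticodons were read where a stem of 5 pairs encloses a 7-base loop with T before the anticodon. Members, starts and comparisons were chosen with earlier results of these data known. All members are reported, and those that passed the filter are named with every library. The labels call the libraries replicates and name no shared litter or day.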

Additional observations from a re-analysis of the deposited data

How the results depend on the processing

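Fold changes are relative to the bulk of tested sequences: the median over all of them was 0.06 with TMM, 0.43 with upper-quartile scaling and 2.15 with library totals alone. With library totals alone, tRF_5_389, tRF_5_420, tRF_5_284 and tRF_5_382 turned in sign, to 1.26, 0.23, 0.0203 and 0.24. For the tRF_5_282 start, members called higher numbered 4 to 6 and members called lower 0 under all settings run. For the tRF_5_325 start, members called higher numbered 2 with library totals alone and 0 with no filter, with 10 counts in at least 3 libraries, by DESeq2, by limma-voom and with the replicate number as a block. Over all sequences, library totals alone called 104 of 254 higher, so 2 of 4 fitted members is close to that share. No filter called 25 of 1336 higher, 10 counts in at least 3 libraries 33 of 223, DESeq2 33 of 429 and limma-voom 40 of 254. Members called lower numbered 0 with library totals alone and with upper-quartile scaling, where 7 and 36 of 254 sequences were called lower. Leaving out 1 library gave 5 to 6 higher for the first start, and 0 to 0 higher and 0 to 1 lower for the second. Over all 211 to 345 sequences tested in those fits, 30 to 49 were higher and 26 to 42 lower. With other 5′ fragments of 35 nt or less as the reference, the log2 ratios were 3.58 and 0.48. Without 1 library they ranged from 4.61 to 6.07 and from 1.57 to 2.53. With the replicate block 5 members of the first start were called higher, and the calls lost were those of tRF_5_282 and, in the second start, tRF_5_325 (adjusted p 0.145 and 0.140). Same-numbered libraries share only a number: their deviations correlated at −0.0054, 0.289 and 0.0452 over 254 sequences. Over all sequences, the block gave 35 higher and 31 lower, against 40 and 43. Low counts and the choice of scale both limit the members.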
